A study of Mus musculus with 12 samples.

Results

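The mitochondrial carrier family, SLC25, was followed through 3 culture media in C2C12 cells, an established line of mouse myoblasts. Its members were taken by name from the authors' deposited table: symbols of the form Slc25a followed by a number, and the uncoupling protein genes Ucp1, Ucp2 and Ucp3. This gave 50 genes of 23123 symbols in 26271 loci. For 24 h, per the labels, high glucose cells had 25 mM glucose, low glucose cells had 5 mM glucose, and galactose cells had 10 mM galactose instead. Pyruvate (1 mM), serum (10%) and antibiotic (1%) were common to all 3 media. Each group has 4 libraries of polyA RNA, 12 in all, and the labels do not say whether these were separate cultures. The design text of the series describes single muscle stem cells and, for cultured ones, 96 h in these media instead. The sample labels were followed, so cell type and time rest on them.

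The deposited values are FPKM, fragment counts scaled to transcript length and library size, with 1 pooled value per group. Triplets of levels are given in the order high glucose, low glucose, galactose. No spread between libraries and no depth can be given, and the q-values below are the authors' own. A gene was called where the authors' tool tested it and q was below 0.05. The lowest q that the table reaches is 0.000239.

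Mitochondrial carriers are small proteins of the inner mitochondrial membrane, built from a repeated unit of membrane helices. They pass ATP, ADP, phosphate, organic acids, amino acids, nucleotides, cofactors and iron between the cytosol and the matrix, which the membrane otherwise keeps apart. In muscle, the adenine nucleotide translocases that send ATP out to the contractile machinery are the best known. Uncoupling proteins belong to the same family, and Ucp1 makes heat in brown fat.

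Of the 50 genes, 40 were tested in every comparison and 10 in none. At least 1 FPKM in some group was listed for 39. Each member lay in a locus with 1 symbol, and Slc25a37 alone had more than 1 locus. Of the members, 12 lay in spans that overlap another locus of the table. Strand use in counting is not given in the sources used here, so reads of overlapping genes cannot be told apart.

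Among members at 5 FPKM or more in some group, the promoters of those with the largest calls from high glucose to galactose are shown, since these members went in opposite directions. They are the windows from 250 bases before to 50 bases after the start, from RefSeq on GRCm38.p6, the same assembly as the mm10 build of the table. Capitals mark matches to the motifs searched.
Slc25a33, chr4:149774218-149774517, minus strand: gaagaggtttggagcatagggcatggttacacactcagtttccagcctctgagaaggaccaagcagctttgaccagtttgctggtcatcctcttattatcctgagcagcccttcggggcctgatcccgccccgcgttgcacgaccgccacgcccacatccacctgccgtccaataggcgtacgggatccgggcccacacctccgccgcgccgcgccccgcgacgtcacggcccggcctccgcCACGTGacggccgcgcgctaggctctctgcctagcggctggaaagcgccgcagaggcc
Ucp2, chr7:100493108-100493407, plus strand: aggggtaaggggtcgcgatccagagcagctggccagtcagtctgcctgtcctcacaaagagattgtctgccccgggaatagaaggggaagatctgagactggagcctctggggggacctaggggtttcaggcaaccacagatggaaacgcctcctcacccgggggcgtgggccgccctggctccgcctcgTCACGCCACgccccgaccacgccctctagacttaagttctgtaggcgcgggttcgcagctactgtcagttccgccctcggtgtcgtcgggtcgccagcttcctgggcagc
Slc25a39, chr11:102407468-102407767, minus strand: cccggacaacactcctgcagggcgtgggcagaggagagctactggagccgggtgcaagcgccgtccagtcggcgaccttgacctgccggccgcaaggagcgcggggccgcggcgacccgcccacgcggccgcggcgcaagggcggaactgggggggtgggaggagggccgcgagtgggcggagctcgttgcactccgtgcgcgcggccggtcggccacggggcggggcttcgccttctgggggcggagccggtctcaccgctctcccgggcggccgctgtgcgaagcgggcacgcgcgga
The promoter table had no entry for Slc25a37. Searched on both strands were the C/EBP-ATF response element TGATGNAA, the cAMP response element TGACGTCA, the E-box CACGTG and the core of the sterol response element TCACNCCAC. An E-box lies at bases 243 to 248 of the Slc25a33 window, and a sterol element core at bases 191 to 199 of the Ucp2 window. The Slc25a39 window holds none of these letters. Over the 49 promoter windows listed for 39 members, the E-box was found in 8 (16.3%), against 7.15% of all 32851 windows. Besides Slc25a33, the members with an E-box were Slc25a1, Slc25a13, Slc25a14, Slc25a15, Slc25a31 and Slc25a36. A member can have several windows listed, and each window was counted. Slc25a15 was called higher from high glucose, Slc25a1 was called lower, and Slc25a14 and Slc25a36 were called in no comparison. Slc25a13 was called higher from high to low glucose and lower from low glucose to galactose, and Slc25a31 was not tested. A link between motif and change was not tested. The C/EBP-ATF element was found in 0 of the 49 windows and in 3.97% of all windows. The cAMP element and the sterol core were each found in 2 member windows (4.08%), against 1.79% and 1.24% of all windows. Besides Ucp2, the sterol core was found in the window of Slc25a18, which was not tested for change. The windows of Slc25a33, Ucp2 and Slc25a39 had a GC content of 66.0%, 64.3% and 77.3%, above the median of 52.7% over all windows.

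From high glucose to galactose, the pyrimidine nucleotide carrier gene Slc25a33, the glutathione carrier gene Slc25a39 and both iron carrier genes were higher. In the same comparison, Ucp2 and the tested genes grouped as di- and tricarboxylate carriers were lower. Slc25a33 rose most, 3.76-fold, and Ucp2 fell 2.59-fold per the authors' deposited table. Of 40 tested members, 9 rose (22.5%) and 11 fell (27.5%), beside 26.5% and 24.8% of all 14812 loci tested. The shares are near those of all loci. A change of at least 2-fold was called for 6 members (15.0%), beside 8.43% of all loci. These were Slc25a33, Slc25a37 and Slc25a39, which rose, and Ucp2, Slc25a35 and Slc25a23, which fell. With each group scaled to the same FPKM sum, Slc25a37 and Slc25a39 both had a log2 change of 0.86, under 2-fold. With a pseudocount of 1 FPKM, those of Slc25a35 and Slc25a23 were -0.52 and -0.55, also under 2-fold. The members' median log2 fold change was -0.04, against 0.01 for all tested loci, and changes of the members ran from -1.85 to 1.91. Of the tested members, 15 were called in no comparison, and the matching share of all tested loci was not counted. The groups' FPKM sums differ, and scaling them to the same sum shifts every log2 change to galactose from high glucose by -0.17; values that this moves by over 1.5 times are given below as equal-sum values.

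From high to low glucose, 8 of the 40 members rose (20%) and 9 fell (22.5%), beside 18.3% and 18.2% of 14699 loci. At least 2-fold was called for 1 member, Slc25a35, or 2.50%, beside 3.31% of loci. From low glucose to galactose, 7 rose (17.5%) and 10 fell (25.0%), beside 17.4% and 16.0% of 14495 loci. Here too 1 member passed 2-fold, Slc25a33, beside 2.86% of loci. The median log2 fold changes were 0.01 and -0.02 for the members, and 0.01 for all loci in both comparisons. The comparisons share groups, so their counts are not independent of each other.

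**Figure D1:**
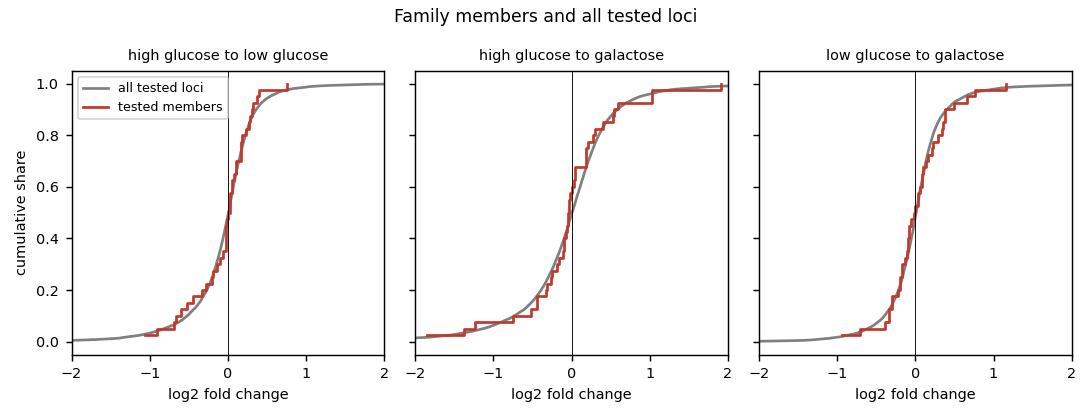
Cumulative share (y axis) of log2 fold changes (x axis) for the 40 tested members, in red, and for all tested loci, in grey, in each comparison. The member medians of 0.01, -0.04 and -0.02 lie close to the medians of all loci.

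Levels spanned a wide range. In high glucose, 4 members were at 100 FPKM or more, 16 between 10 and 100 FPKM, 19 between 1 and 10 FPKM and 11 below 1 FPKM. The family's values summed to 1969.9, 2111 and 2234 FPKM per the authors' deposited table. As a share of the sum over all loci, the family took 0.359%, 0.362% and 0.362%. Slc25a3, Slc25a4 and Slc25a5 together made up 68.7%, 69.7% and 67.8% of the family's sum. Order among neighbouring levels cannot be tested without values per library.

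**Figure D2:**
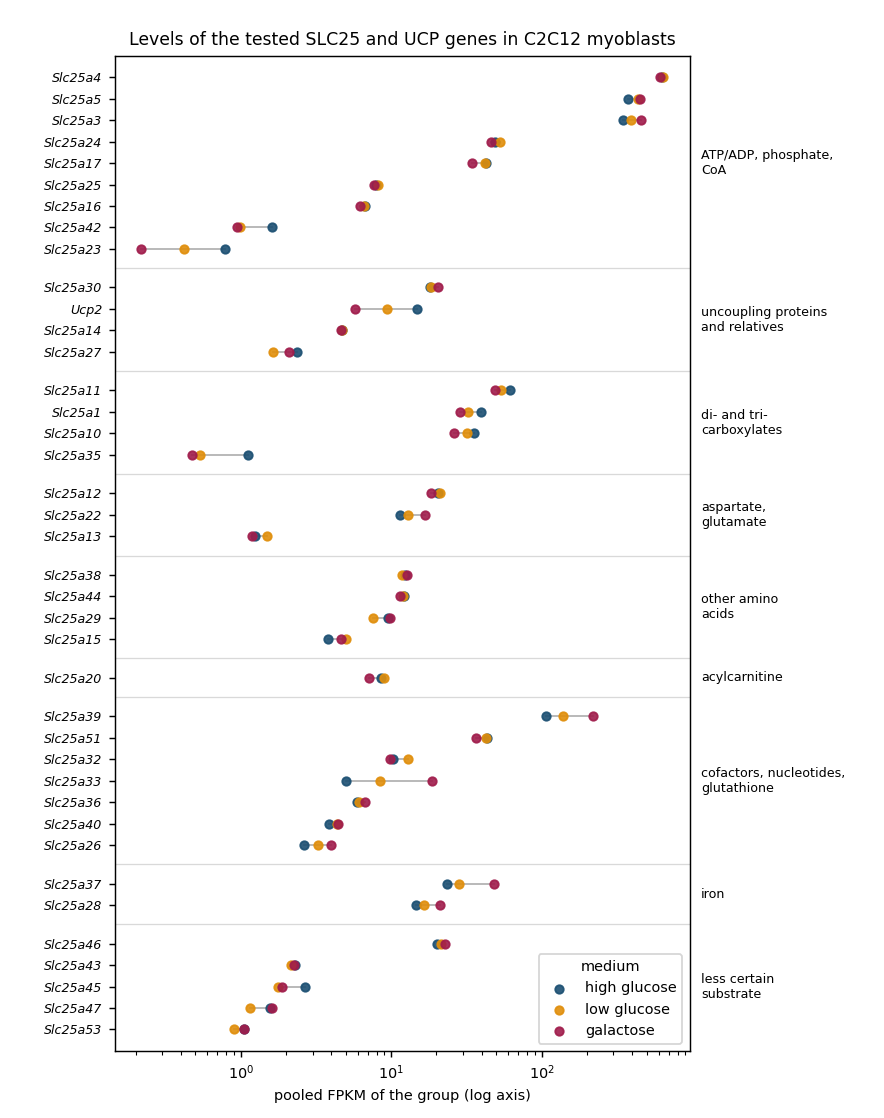
Pooled FPKM (log x axis) of 39 of the 40 tested members in high glucose, low glucose and galactose, 1 point per group, ordered by role; grey bars join the lowest and highest group. Slc25a4, Slc25a5 and Slc25a3 lie above 300 FPKM in every group, and Slc25a33 and Slc25a23 have the widest gaps between groups.

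Slc25a4, Slc25a5 and Slc25a31 encode adenine nucleotide translocases, which exchange ADP for ATP, and Slc25a3 encodes the phosphate carrier that supplies ATP synthase. Slc25a4, the form of heart and skeletal muscle, was the highest member, at 635, 644 and 609.9 FPKM per the authors' deposited table. It was called in no comparison (q = 0.839 to low glucose and q = 0.529 to galactose from high glucose). Slc25a5, the form of dividing cells, was listed at 372, 438 and 449 FPKM per the authors' deposited table. It rose from high to low glucose (log2 0.23, q = 0.00232) and from high glucose to galactose (log2 0.27, q = 0.000239) per the authors' deposited table. The equal-sum values of Slc25a5 were smaller, 0.15 and 0.10. The ratio of Slc25a4 to Slc25a5 thus went from 1.70 to 1.47 and 1.36. Slc25a3 had 347, 390 and 456 FPKM and was called higher in all 3 comparisons, with log2 changes of 0.17, 0.40 and 0.23 per the authors' deposited table (q = 0.0244, 0.000239 and 0.00266). The equal-sum values of Slc25a3 were 0.08, 0.22 and 0.14. Slc25a31, the form of male germ cells, was listed at 0 in both glucose media and at 0.00364 FPKM in galactose.

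Slc25a5 is a gene with many near copies. Of the 50-base windows of its longest coding transcript in GENCODE M21, 46.6% occur also in transcripts of 9 other genes, so its FPKM is uncertain. For Slc25a3 the share is 4.72%, and for Slc25a4 it is 0%. The coding sequences of Slc25a4 and Slc25a5 are identical at 77.4% of 894 aligned bases.

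Carriers that exchange ATP-Mg for phosphate set the size of the nucleotide pool in the matrix. Slc25a24, the main one here, was at 49.0, 52.6 and 45.8 FPKM and fell from low glucose to galactose (log2 -0.20, q = 0.00825) per the authors' deposited table. Slc25a25 was called in no comparison, with values from 7.66 to 8.20 FPKM. Slc25a23 went from 0.782 to 0.418 and 0.218 FPKM per the authors' deposited table, a log2 change of -1.85 from high glucose to galactose (q = 0.000239). It fell in every comparison, but stayed below 1 FPKM throughout, and with a pseudocount of 1 FPKM the change to galactose was -0.55. Slc25a41, of the same subgroup, was listed at 0 in every group.

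Slc25a42, which carries coenzyme A, was at 1.60, 0.992 and 0.951 FPKM and fell from high to low glucose (log2 -0.69, q = 0.000239) per the authors' deposited table. From high glucose to galactose its log2 change was -0.76 (q = 0.000239), and from low glucose to galactose it was not called (q = 0.754). With a pseudocount of 1 FPKM the changes of Slc25a42 from high glucose were -0.39 and -0.42. Slc25a16, which has also been linked to coenzyme A, was called in no comparison, at 6.19 to 6.67 FPKM. Slc25a17, a carrier of the peroxisome rather than the mitochondrion, was at 42.6, 42.0 and 34.2 FPKM and fell in galactose against high glucose (log2 -0.32) and against low glucose (log2 -0.30, q = 0.000239 for both) per the authors' deposited table. Its equal-sum value against high glucose was -0.49.

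Uncoupling proteins dissipate the proton gradient or, as proposed for Ucp2, export metabolites of the citric acid cycle. Ucp2 was at 15.0, 9.40 and 5.78 FPKM per the authors' deposited table. It fell in every comparison, with log2 changes of -0.67 to low glucose and -1.37 to galactose from high glucose, and -0.70 between low glucose and galactose (q = 0.000239 for each, per the authors' deposited table). It lies on chromosome 7 from 100493345 to 100502173 (mm10). Ucp3, the form of skeletal muscle, is its neighbour on that chromosome, from 100472991 to 100486432. It was not tested, with 0.0185, 0.00480 and 0.00909 FPKM. Ucp1 was listed at 0 in all 3 groups. Of the relatives, Slc25a14 and Slc25a30 were called in no comparison, at 4.63 to 4.70 and 18.2 to 20.6 FPKM, and Slc25a27, also named UCP4, fell only from high to low glucose, from 2.36 to 1.65 FPKM (log2 -0.52, q = 0.0226, or -0.35 with a pseudocount of 1 FPKM) per the authors' deposited table.

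Of the 6 genes grouped here as di- and tricarboxylate carriers, 4 were tested. These include Slc25a35, whose substrate is not settled and which was at no more than 1.12 FPKM. All 4 fell from high glucose to galactose, with a median log2 change of -0.44, beside 24.8% of all tested loci. From high to low glucose 3 of the 4 fell, beside 18.2% of loci, and from low glucose to galactose 2 of the 4, beside 16.0%. None of them was called higher in a comparison. Slc25a1 exports citrate, from which the cytosol makes acetyl-CoA. It was at 39.3, 32.4 and 28.8 FPKM and fell in each comparison, with log2 changes of -0.28, -0.45 and -0.17 per the authors' deposited table (q = 0.000456, 0.000239 and 0.0320). Slc25a10, which exchanges malate or succinate for phosphate, was at 35.4, 32.0 and 26.0 FPKM per the authors' deposited table. It fell in galactose against high glucose (log2 -0.44) and against low glucose (log2 -0.30, q = 0.000239 for both), and the change to low glucose was not called (q = 0.0640).

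Slc25a11 carries 2-oxoglutarate in exchange for malate and is a part of the malate-aspartate shuttle. It was at 61.3, 53.5 and 48.9 FPKM per the authors' deposited table. It fell from high to low glucose (log2 -0.20, q = 0.0111) and from high glucose to galactose (log2 -0.33, q = 0.000239, with an equal-sum value of -0.50). Slc25a35, whose substrate is not settled, had 1.12, 0.535 and 0.473 FPKM per the authors' deposited table. Its log2 changes from high glucose were -1.06 and -1.24 (q = 0.000239 for both), and low glucose and galactose were not called apart (q = 0.604). With a pseudocount of 1 FPKM these changes of Slc25a35 were -0.47 and -0.52, under 2-fold. Its span overlaps that of Rangrf. Slc25a34 was not tested, at no more than 0.139 FPKM, and Slc25a21, the oxoadipate carrier, was listed at 0.

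**Figure D3:**
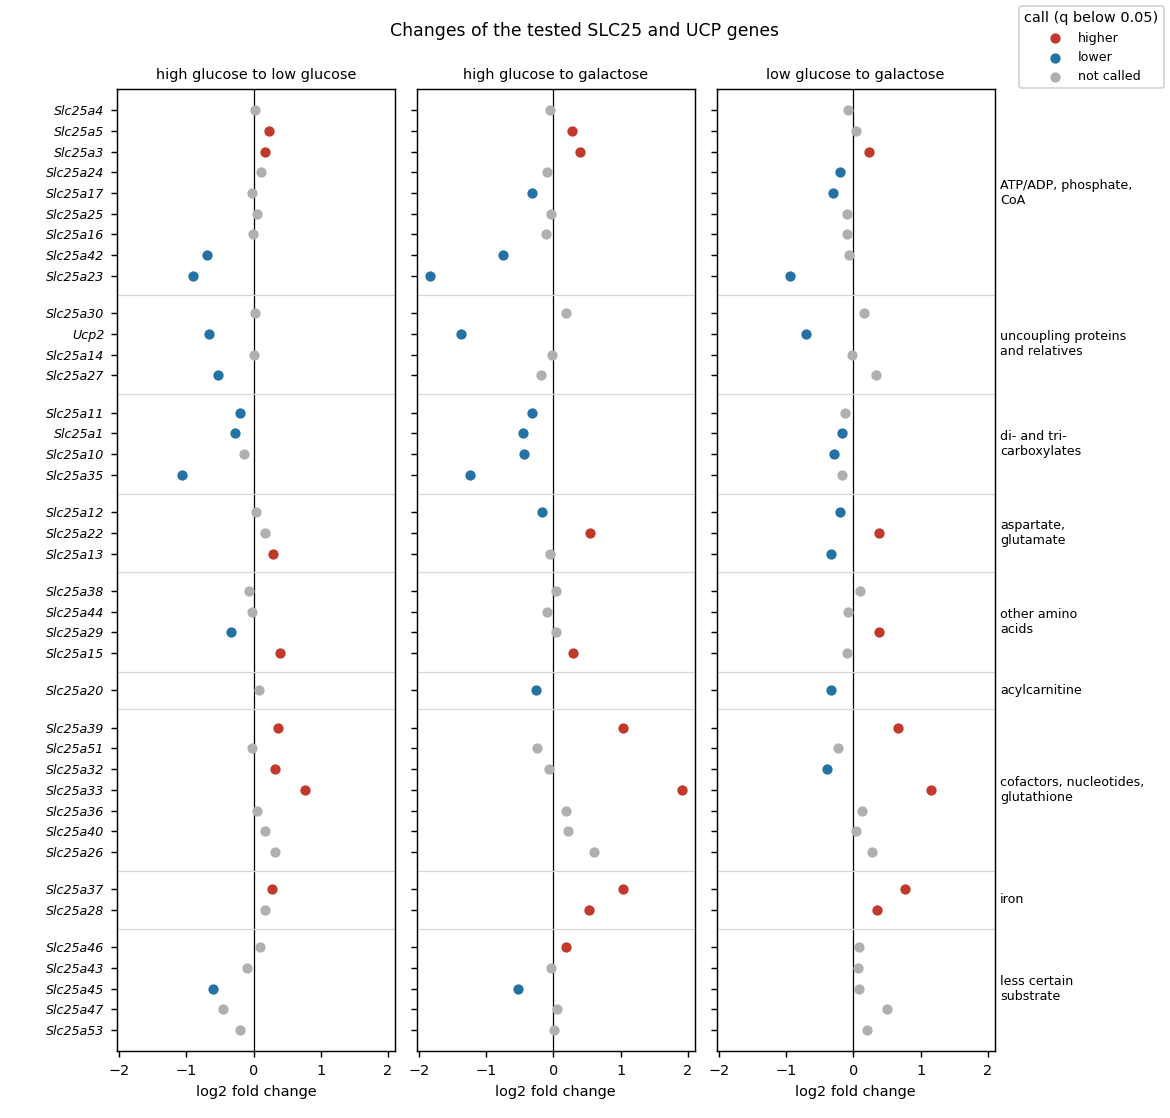
Log2 fold change (x axis) of 39 of the 40 tested members in the 3 comparisons, coloured by the authors' q below 0.05 as higher, lower or not called. The 4 genes grouped as di- and tricarboxylate carriers, among them Slc25a35 with an unsettled substrate, lie left of 0 in each panel. Both iron carriers lie right of 0.

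Carriers of aspartate and glutamate were called in both directions. Slc25a12 and Slc25a13 encode the calcium-regulated carriers that complete the malate-aspartate shuttle. Slc25a12 was at 20.6, 21.0 and 18.3 FPKM and fell in galactose against high glucose (log2 -0.17, q = 0.0421) and against low glucose (log2 -0.20, q = 0.0112) per the authors' deposited table. Its equal-sum value against high glucose was -0.34. Slc25a13 had 1.24, 1.50 and 1.20 FPKM per the authors' deposited table, with a peak in low glucose: it rose from high to low glucose (log2 0.28, q = 0.0367) and fell from low glucose to galactose (log2 -0.33, q = 0.0127). With a pseudocount of 1 FPKM these were 0.16 and -0.19. Slc25a22, a carrier that brings glutamate in with protons, went the other way, at 11.4, 12.9 and 16.7 FPKM per the authors' deposited table. It rose in galactose against high glucose (log2 0.54) and against low glucose (log2 0.37, q = 0.000239 for both). Its homologue Slc25a18 was not tested, at 0.0382 FPKM or less.

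Among other amino acid carriers, Slc25a15, the ornithine carrier, rose from high glucose in both other media, with 3.78, 4.98 and 4.64 FPKM per the authors' deposited table. Its log2 changes were 0.40 (q = 0.000239) and 0.30 (q = 0.00124), the latter with an equal-sum value of 0.13. Slc25a29, which carries basic amino acids, was lowest in low glucose, with 9.53, 7.54 and 9.82 FPKM per the authors' deposited table. It fell from high to low glucose (log2 -0.34, q = 0.00143) and rose from low glucose to galactose (log2 0.38, q = 0.000239). Its span is shared with Slc25a47, so their reads may be mixed, and Slc25a47 was called in no comparison at 1.15 to 1.62 FPKM. Slc25a38, the glycine carrier needed for haem synthesis, was called in no comparison, with 12.4, 11.8 and 12.7 FPKM per the authors' deposited table. Slc25a44, a carrier of branched-chain amino acids, was not called either, at 11.4 to 12.2 FPKM. Slc25a2, also grouped with these amino acid carriers, was not tested, at no more than 0.0356 FPKM. Slc25a20 takes acylcarnitines in for fatty acid oxidation. It was at 8.52, 8.98 and 7.12 FPKM and fell in galactose against high glucose (log2 -0.26, q = 0.00996) and against low glucose (log2 -0.33, q = 0.00179) per the authors' deposited table. Its equal-sum value against high glucose was -0.43.

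The largest rise was that of Slc25a33, which carries pyrimidine nucleotides into mitochondria and is also called PNC1. It was listed at 4.99, 8.44 and 18.8 FPKM per the authors' deposited table. It was called in every comparison, with log2 changes of 0.76 to low glucose and 1.91 to galactose from high glucose, and 1.15 between low glucose and galactose per the authors' deposited table (q = 0.000239 for each). The locus lies on chromosome 4 from 149743080 to 149774276 (mm10). Of the 50-base windows of its coding transcript, 12.6% occur also in the gene model Gm13068. Slc25a36, the other pyrimidine nucleotide carrier, was called in no comparison, with 5.89, 6.12 and 6.70 FPKM per the authors' deposited table. The ratio of Slc25a33 to Slc25a36 therefore went from 0.847 in high glucose to 1.38 and 2.80. Their coding sequences are identical at 63.7% of 923 aligned bases.

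Slc25a39 encodes a carrier required for glutathione import into mitochondria. It was the highest member after the translocases and the phosphate carrier, at 107, 138 and 218 FPKM per the authors' deposited table. Its log2 changes were 0.37, 1.03 and 0.67 (q = 0.000239 for each) per the authors' deposited table. The locus is listed on chromosome 11 from 102393403 to 102408043 (mm10), a span that overlaps Rundc3a, and 0% of its 50-base windows occur in another gene. Slc25a40, its homologue, was at 3.84, 4.34 and 4.45 FPKM per the authors' deposited table and was called in no comparison. The ratio of Slc25a39 to Slc25a40 was 27.8, 31.7 and 49.1.

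Both iron carriers, which supply haem and iron-sulphur cluster synthesis, were higher in galactose. Slc25a37, mitoferrin 1, was at 23.5, 28.4 and 48.1 FPKM per the authors' deposited table and rose in each comparison, with log2 changes of 0.27, 1.03 and 0.76 (q = 0.00399, 0.000239 and 0.000239). Slc25a28, mitoferrin 2, was at 14.7, 16.5 and 21.2 FPKM per the authors' deposited table. It rose in galactose against high glucose (log2 0.53) and against low glucose (log2 0.36, q = 0.000239 for both), and was not called between the glucose media (q = 0.107). The ratio of Slc25a37 to Slc25a28 was 1.60, 1.72 and 2.27. The other locus with the symbol Slc25a37 had 4.95, 5.88 and 10.5 FPKM per the authors' deposited table. That locus was not called from high to low glucose (log2 0.25, q = 0.211). It was called higher in galactose against high glucose (log2 1.09) and against low glucose (log2 0.84). Both loci carry the same span on chromosome 14, which also holds Entpd4, Loxl2 and Synb, whereas RefSeq places Slc25a37 from 69241848 to 69285544 there.

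**Figure D4:**
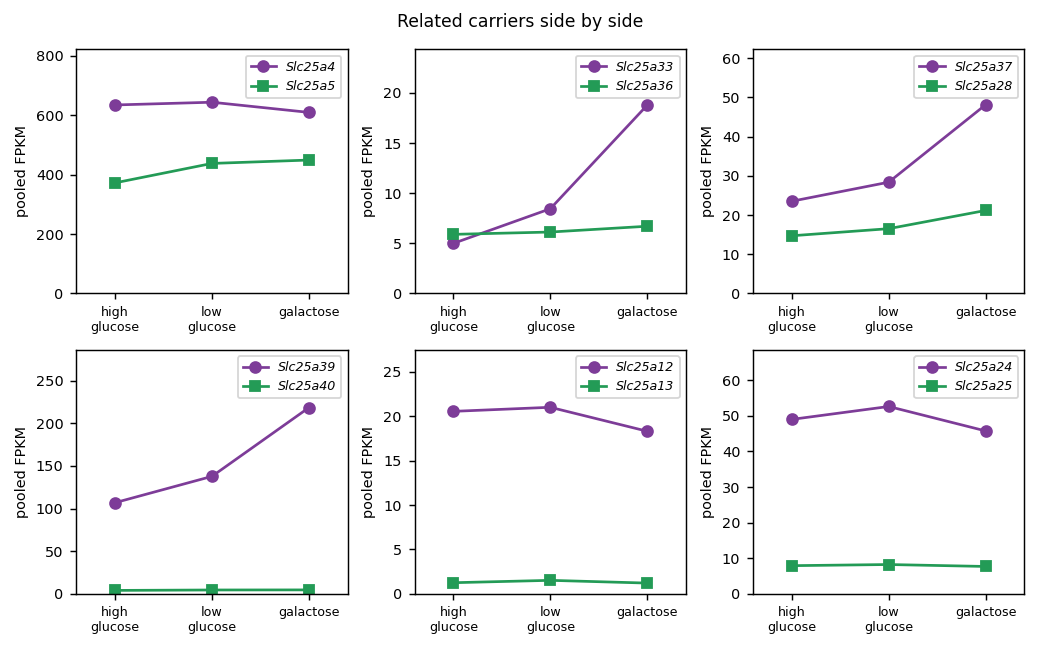
Pooled FPKM (y axis, from 0) of 6 pairs of related carriers in the 3 media, 1 point per group, with lines joining the points of a gene. Slc25a33 passes Slc25a36 from low glucose on, and Slc25a39 rises to 218 FPKM while Slc25a40 lies between 3.84 and 4.45 FPKM.

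Slc25a32, a cofactor carrier linked to folate and flavin transport, was highest in low glucose, with 10.3, 12.9 and 9.83 FPKM per the authors' deposited table. It rose from high to low glucose (log2 0.32, q = 0.0117) and fell from low glucose to galactose (log2 -0.39, q = 0.00300). The span of Slc25a32 overlaps that of Dcaf13, so their reads may be mixed. Slc25a26, the carrier of S-adenosylmethionine, was at 2.64, 3.27 and 3.99 FPKM and was not called from high glucose to galactose (log2 0.60, q = 0.0742) per the authors' deposited table. Slc25a51, which imports NAD, was at 43.2, 42.6 and 36.4 FPKM and was also called in no comparison, with q = 0.639 from high glucose to galactose per the authors' deposited table.

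Of the carriers with less certain roles, Slc25a45 had 2.69, 1.76 and 1.87 FPKM per the authors' deposited table. It fell from high glucose in both other media, with log2 changes of -0.61 and -0.52 (q = 0.000239 for both). Slc25a46, an outer membrane protein that acts in mitochondrial shape, rose from high glucose to galactose (log2 0.19, q = 0.0204) per the authors' deposited table, at 20.1, 21.5 and 22.9 FPKM, but its equal-sum value was 0.02. Slc25a43 and Slc25a53 were called in no comparison, at no more than 2.30 and 1.05 FPKM. Slc25a48 and Slc25a54 were not tested, with at most 0.0521 and 0.0235 FPKM.

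Carriers are made in the cytosol and inserted into the inner membrane by their own import machinery. In the authors' deposited table, 8 of 10 genes of this machinery rose from high glucose to galactose, beside 26.5% of all tested loci. Of the 10, 0 fell, and their median log2 change was 0.47, against 0.01 for all tested loci. The equal-sum shift of -0.17 is in neither of these medians and applies to both alike. Among those that rose, Timm29, Timm8b and Timm13 had log2 changes of 0.36, 0.28 and 0.20, with equal-sum values of 0.19, 0.11 and 0.03. From high to low glucose 5 of 10 rose (median 0.23), beside 18.3% of loci. From low glucose to galactose 1 did, beside 17.4% of loci: Timm10, with a log2 change of 0.21 and an equal-sum value of 0.13. Timm8a1, a chaperone of the space between the membranes, was at 3.59, 6.95 and 8.09 FPKM, with log2 changes of 0.95 and 1.17 from high glucose per the authors' deposited table (q = 0.000239 for both). Timm10, which with Timm9 forms the main chaperone of carriers, was at 34.1, 52.6 and 61.0 FPKM, and Timm9 was at 19.1, 29.7 and 32.7 FPKM per the authors' deposited table. Timm22, the pore of the insertion complex, was called in no comparison, at 15.1, 15.1 and 13.7 FPKM per the authors' deposited table. Timm29 was found under an older symbol in a locus with 2 symbols.

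Of 18 other transporters of the inner membrane, 4 rose and 4 fell from high glucose to galactose, beside 26.5% and 24.8% of all tested loci. From high to low glucose 2 rose and 2 fell, beside 18.3% and 18.2%, and from low glucose to galactose 4 rose and 2 fell, beside 17.4% and 16.0%. Mcu, the pore of the calcium uniporter, went from 18.7 to 23.7 and 28.8 FPKM (log2 0.34 and 0.63 from high glucose, q = 0.000239 for both) per the authors' deposited table. Slc8b1, the sodium-calcium exchanger, fell from 14.5 to 10.2 FPKM from high to low glucose (log2 -0.50), and Abcb8 from 8.84 to 6.56 FPKM (log2 -0.43) per the authors' deposited table. In galactose Slc8b1 was at 10.8 FPKM, also called lower than in high glucose (log2 -0.42). Abcb8 in galactose was at 8.54 FPKM, called higher than in low glucose (log2 0.38) and not called against high glucose (q = 0.637). Sfxn4 fell from 0.669 FPKM in high glucose to 0.389 in galactose (log2 -0.78, q = 0.000239, or -0.26 with a pseudocount of 1 FPKM) per the authors' deposited table. The pyruvate carrier genes Mpc1 and Mpc2 were called in no comparison, at 2.74, 2.95 and 3.40 FPKM and at 42.1, 40.5 and 38.7 FPKM per the authors' deposited table.

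Of 5 outer membrane genes, 4 rose and 0 fell from high glucose to galactose, beside 26.5% and 24.8% of all tested loci. From high to low glucose 3 rose and 1, Mtch1, fell, beside 18.3% and 18.2%. All 3 channel genes among them rose from high glucose in both other media. Vdac3 went from 20.0 to 24.1 and 33.5 FPKM (log2 0.27 and 0.75), Vdac1 from 197 to 237 and 259.8 FPKM (log2 0.26 and 0.40), per the authors' deposited table. The equal-sum value of Vdac1 to galactose was 0.22. Vdac2 rose from 98.2 to 120.1 FPKM from high to low glucose (log2 0.29) per the authors' deposited table. Mtch2, a carrier homologue of that membrane, rose from low glucose to galactose (log2 0.18, q = 0.0221, with an equal-sum value of 0.10) per the authors' deposited table. From high glucose to galactose, the log2 changes of Vdac2 and Mtch2 were 0.39 and 0.31, with equal-sum values of 0.22 and 0.14.

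Enzymes of the malate-aspartate shuttle work with Slc25a11, Slc25a12 and Slc25a13 to move reducing power into mitochondria, and those of the glycerophosphate shuttle do so without these carriers. Of 6 tested enzymes of both shuttles, 3 rose and 2 fell from high glucose to galactose, beside 26.5% and 24.8% of all tested loci. From high to low glucose 3 rose and 2 fell, beside 18.3% and 18.2%, and from low glucose to galactose 1 rose and 2 fell, beside 17.4% and 16.0%. Got1, the cytosolic aspartate aminotransferase, went from 37.5 to 54.6 and 85.9 FPKM, a log2 change of 1.19 from high glucose to galactose (q = 0.000239) per the authors' deposited table. Got2, its mitochondrial form, rose from 52.4 to 64.9 FPKM from high to low glucose (log2 0.31) per the authors' deposited table. Its log2 change from high glucose to galactose was 0.33, with an equal-sum value of 0.15. Mdh1, of the malate-aspartate shuttle, fell from 67.4 to 57.2 and 51.6 FPKM (log2 -0.24 and -0.38 from high glucose). Gpd1l, of the same list of both shuttles, fell from 12.7 to 7.92 FPKM from high glucose to galactose (log2 -0.68) per the authors' deposited table. The rise of Mdh2 to galactose is small (log2 0.16, q = 0.0385 per the authors' deposited table) and turns to -0.01 when each group is scaled to the same sum of FPKM.

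**Figure D5:**
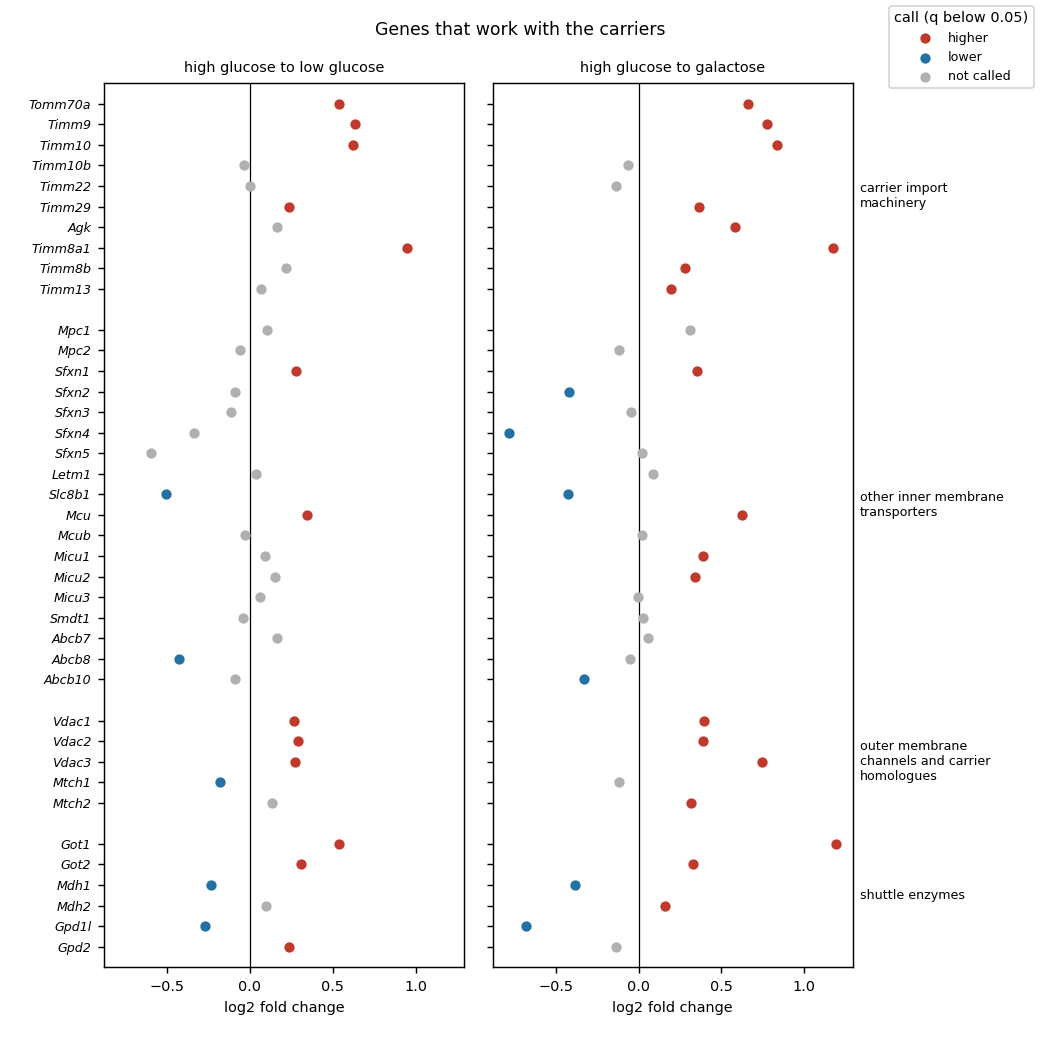
Log2 fold change (x axis) from high glucose to low glucose and to galactose of genes that import the carriers, other transporters and shuttle enzymes, coloured by the authors' q below 0.05. From high glucose to galactose, 8 of the 10 import genes are higher and none is lower.

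The labelled cell type was checked against markers. All 6 myoblast markers, among them Myod1 and Des, were detected, and their summed level was 749.7, 490.3 and 395.7 FPKM. Each of the 6 was called lower from high glucose to galactose, beside 24.8% of all tested loci. Fibroblast markers summed to 85.1, 53.6 and 35.1 FPKM, with 1 of 5, Thy1, at 0 in every group. From high glucose to galactose 3 of them were called lower, beside the same 24.8% of loci. The part of these differences in the results above was not tested. The 5 adipocyte markers were at or near 0, with 0.0150 FPKM as the highest value and Cidea at 0, and those of endothelium reached at most 0.157 FPKM. Male germ cell markers reached at most 0.101 FPKM, with 2 of 3 at 0. Of 3 blood cell markers, Ptprc was at 0.00823 FPKM or less. The other 2, Cd68 and Hba-a1, share loci with another gene and were not summed. The Cd68 locus was at 72.7, 96.0 and 98.6 FPKM and was called higher from high glucose in both other media. The Hba-a1 locus was at 0.408 FPKM or less. Reads of the genes that share a locus cannot be told apart. In bulk RNA, fewer cells of a type and less RNA per cell cannot be told apart.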

How the data were processed

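RNA of C2C12 cells in 3 media was sequenced by the authors from polyA libraries, 4 per group. Per the submitters' processing notes, TopHat2 2.0.10, Cufflinks 2.2.0 and Cuffdiff were used with mm10. Annotation, settings, strand and scaling between libraries are not given in the sources used here. The authors deposited 1 Cuffdiff table, with a pooled FPKM value per group and, for each pair of groups, a log2 fold change, a test score (not used), a p-value and a q-value. The deposited log2 fold change equals the log2 ratio of the FPKM values to within 0.001 in 99.8% of 44006 tests, with no pseudocount. The deposited q-value equals a Benjamini-Hochberg adjustment of the p-values over all of these tests.

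Members were found by symbol, with the locus of the highest summed FPKM where there were more loci. Calls used the authors' q below 0.05 across all genes, and no test across libraries could be run. Start positions were raised by 1: of 20690 loci compared, 8197 then equal the RefSeq start, against 512 before. Members and lists were chosen with earlier results of these data known.

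Values in full were given for members at 1 FPKM or more that were called with a log2 fold change of 0.5 or larger in size, and for the main carriers of each role (Slc25a1, Slc25a3, Slc25a4, Slc25a5, Slc25a10 to Slc25a13, Slc25a20, Slc25a22, Slc25a28, Slc25a32, Slc25a33, Slc25a37 to Slc25a39 and Ucp1 to Ucp3). Other members were named with their level, and 1 member is counted but not reported here by name. Of other lists, up to 2 called genes per comparison were named. Fold changes or q-values of Slc25a15, Slc25a17, Slc25a23, Slc25a24, Slc25a26, Slc25a29, Slc25a46 and Slc25a51 were added after their values were seen. So were the genes Timm8b, Timm13, Timm22, Mpc1, Mpc2, Mdh1 and Mdh2, and the levels of the Cd68 and Hba-a1 loci. Further values of Timm29, Abcb8, Slc8b1, Vdac2, Mtch2 and Got2 were added in the same way. Promoters were those of the largest calls to galactose at 5 FPKM or more. The adjustment was tested on simulated p-values. Alternatives were a stricter q, a 2-fold limit, an FPKM minimum, adjustment within comparisons, single-symbol loci, re-centring, a pseudocount, summed loci and, chosen after seeing the data, groups scaled to the same FPKM sum. Coding sequences came from GENCODE M21 and were aligned with biopython 1.88. Tables were handled with pandas 2.3.3 and numpy 2.4.6 in Python 3.11.15, and plots were drawn with matplotlib 3.10.9.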

Additional observations from a re-analysis of the deposited data

How the results depend on the processing

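The counts of called members, 17 between the glucose media, 20 to galactose from high glucose and 17 to galactose from low glucose, stayed within 1.5 times under q below 0.01 (12, 18 and 14), an FPKM minimum, adjustment within each comparison and single-symbol loci. With a change of at least 2-fold required they were 1, 6 and 1. Scaling each group to the same FPKM sum, chosen after seeing the data, shifts the log2 changes of every locus by -0.09, -0.17 and -0.08. It moved the members' median from high glucose to galactose from -0.04 to -0.21, and that of all loci by the same -0.17. It changed the sign of 0 called members and moved 8 of 20 called values to galactose from high glucose by over 1.5 times, as a pseudocount of 1 FPKM did 3 of 20 there and 5 of 17 between the glucose media. At q below 0.01, 9 of 66 values of named members were no longer called: Slc25a3, Slc25a11, Slc25a13, Slc25a27 and Slc25a32 between the glucose media, Slc25a12 to galactose from high glucose, and Slc25a1, Slc25a12 and Slc25a13 to galactose from low glucose. No paired analysis was possible because the table holds 1 pooled value per group. Leaving out libraries was not run for the same reason. Depth is unknown, so members listed near 0 cannot be called absent.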
